A study of Mus musculus with 12 samples.

Results

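The genes described here are 33 synaptic genes, most of them of excitatory synapses, that encode postsynaptic scaffolds and synaptic adhesion proteins. They were chosen by name, and a peak counted for a gene when it overlapped the protein-coding span of that gene in mm10 on the same strand by at least 1 base. The 33 genes are part of 21900 protein-coding spans, and 31 of them had an m5C peak in at least 1 list. The study immunoprecipitated RNA fragments carrying 5-methylcytosine (m5C), a methylated base of RNA, with an antibody and set each immunoprecipitate against RNA that had not been enriched. The tissue was the hippocampus of female wild-type (WT) C57BL/6 mice, at 18 months of age after natural aging (aged, 3 peak lists) and at 3 months (young, 3 peak lists). Neither age carried a transgene or received an agent in the labels. Each list came from 1 immunoprecipitate and its own input, 12 libraries in all, and whether the samples of an age were separate animals is not said. The p-values below therefore measure the spread between samples, which may be partly technical.

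At an excitatory synapse, PDZ-domain scaffolds of the postsynaptic density hold glutamate receptors opposite the site of transmitter release. Membrane-associated guanylate kinases (the Dlg genes) bind receptors and bind SAPAP proteins (the Dlgap genes), which bind the Shank proteins, which in turn bind the Homer proteins. Neuroligins and LRRTM proteins in the postsynaptic membrane bind neurexins of the axon terminal across the synaptic cleft. Many of these messenger RNAs are long, and some are carried into dendrites and translated there.

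The aged lists held 14008 to 15189 peaks in all and the young lists 8549 to 10392. No read counts came with the lists, so the depth behind a peak is unknown. How much of a transcript is present also bears on whether a peak is called, and input levels are not analysed here. In bulk tissue fewer cells of a type and less RNA per cell cannot be told apart. Among markers of pyramidal and granule neurons, 6 to 8 of 8 genes had a peak in aged and 6 or 7 of 8 in young lists. For interneuron markers the numbers were 4 or 5 of 8 and 1 or 2 of 8, for astrocyte markers 6 or 7 of 8 and 4 to 6 of 8, and for oligodendrocyte markers 4 or 5 of 8 and 2 to 5 of 8. Microglia markers had 1 or 2 of 8 in aged lists and 1 of 8 in young lists, with Csf1r, P2ry12, Tmem119 and C1qa among those without a peak in any list, and endothelial markers had 3 or 4 of 8 and 2 or 3 of 8. The summed peaks of each marker list were 16 to 22 in aged and 10 to 15 in young lists for pyramidal and granule neurons, 6 to 8 and 1 or 2 for interneurons, and 13 to 17 and 6 to 9 for astrocytes. They were 6 to 10 and 4 to 7 for oligodendrocytes, 1 to 3 and 1 or 2 for microglia, and 4 to 6 and 3 to 5 for endothelial cells. Their part in the results below was not tested.

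Some of the peaks lay over annotated transcript starts, where the sequence is at hand. RefSeq windows of GRCm38.p6 (mm10), from 250 bases before to 50 bases after a start, were given for 26 of the 33 genes, 48 windows in all. Shank1, Shank2, Dlgap2, Nlgn3, Nrxn2, Lrrtm2 and Shisa9 had no window. A peak of at least 1 list lay over 11 of the 48 windows (22.9%), in 10 genes, against 6.2% of all 32851 windows of the table. The bases of these shares are unlike. All windows belong to 27025 genes and include genes without a peak in any list, whereas 31 of the 33 genes had a peak. The 4 windows below are shown because each had a peak in every aged list, as did one Lrrc7 window, and they differ in how many young lists held one. Of the other windows, one of Dlg3 had a peak in young list 2 alone. The first Magi2 start had one in aged lists 1 and 3 and young list 3, and windows of Baiap2, Dlgap1, Nrxn3 and Sipa1l1 had one in 1 or 2 aged lists and no young list. They are written 5' to 3' on the strand of the gene, and capitals mark the bases covered by a peak in any list.
Iqsec2, chrX:152144018-152144317, plus strand: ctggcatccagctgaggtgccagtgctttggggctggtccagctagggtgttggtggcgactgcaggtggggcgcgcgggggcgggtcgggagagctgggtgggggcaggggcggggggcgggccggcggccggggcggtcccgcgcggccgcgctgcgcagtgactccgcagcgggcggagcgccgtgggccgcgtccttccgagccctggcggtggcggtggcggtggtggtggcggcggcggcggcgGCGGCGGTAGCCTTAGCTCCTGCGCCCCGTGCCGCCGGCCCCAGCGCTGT
Lrrtm3, chr10:64090206-64090505, minus strand: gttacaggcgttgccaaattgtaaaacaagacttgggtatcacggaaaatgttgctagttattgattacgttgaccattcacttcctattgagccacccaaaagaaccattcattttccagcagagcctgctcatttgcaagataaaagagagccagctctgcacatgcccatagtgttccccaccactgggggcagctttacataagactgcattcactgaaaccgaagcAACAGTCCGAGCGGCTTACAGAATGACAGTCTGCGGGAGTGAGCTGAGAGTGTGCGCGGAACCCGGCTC
Nlgn2, chr11:69837735-69838034, minus strand: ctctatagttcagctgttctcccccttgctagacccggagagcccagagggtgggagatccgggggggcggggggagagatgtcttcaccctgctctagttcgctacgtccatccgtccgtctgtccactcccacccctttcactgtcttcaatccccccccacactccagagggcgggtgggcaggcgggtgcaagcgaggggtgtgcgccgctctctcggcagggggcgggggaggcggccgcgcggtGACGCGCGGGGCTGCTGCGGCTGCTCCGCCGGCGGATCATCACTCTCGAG
Magi2, chr5:19907268-19907567, plus strand: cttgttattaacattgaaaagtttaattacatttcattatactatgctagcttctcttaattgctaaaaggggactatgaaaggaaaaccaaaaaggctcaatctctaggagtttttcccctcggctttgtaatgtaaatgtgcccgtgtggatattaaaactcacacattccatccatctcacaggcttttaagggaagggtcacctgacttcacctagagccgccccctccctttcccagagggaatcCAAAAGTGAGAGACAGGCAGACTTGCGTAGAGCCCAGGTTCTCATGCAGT

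Each aged list, but no young list, had a peak over the Iqsec2 and Lrrtm3 windows, as over 147 windows of the whole table. The Nlgn2 window had peaks in aged lists 1, 2 and 3 and in young lists 1 and 3. The Magi2 window lies at a start inside the gene span and had a peak in all 6 lists, as did 387 windows of the whole table. In Iqsec2 (3 of 3 peaks), Magi2 (6 of 6) and Nlgn2 (3 of 5), the upstream edge of the peak fell exactly on the annotated start, at 152144268, 19907518 and 69837784. The Lrrtm3 peaks began 19 bases upstream of its start. The GC content of the 4 windows was 79.7% in Iqsec2, 48.7% in Lrrtm3, 68.7% in Nlgn2 and 43.0% in Magi2, and the median of all windows was 52.7%. The motif CTCCA, the letters around cytosines that the methyltransferase NSUN6 modifies in human mRNA, was searched on both strands. CTCCA occurred once in the Nlgn2 window, not on the sense strand of its covered bases, and in none of the other 3 printed windows. The Lrrc7 window, which is not printed, held it 1 time, on the sense strand within bases covered by a peak. Of all windows, 65.0% held it on either strand.

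The 33 genes held more peaks in every aged list than in every young list. There were 98, 83 and 104 peaks in the aged lists and 49, 38 and 55 in the young lists. The ages did not overlap, and the aged mean was 2.01 times the young mean (95.0 ± 10.8 and 47.3 ± 8.62 peaks, SD, n = 3 each). Over whole lists the same ratio was 1.51. The 33 genes therefore took a larger share of an aged list, at 0.645%, 0.593% and 0.728% in aged lists against 0.496%, 0.444% and 0.529% in young lists. With every list limited to its 8549 highest-scoring peaks, the share was 0.573% to 0.690% in aged and 0.444% to 0.538% in young lists, and the ages again did not overlap. The number of peaks was then 53.7 ± 5.03 in aged and 42.0 ± 4.0 in young lists, a ratio of 1.28. No test was run on these sums, since the genes were chosen with earlier results of these data known.

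The number of the 33 genes with a peak was 29, 27 and 29 in the aged lists and 20, 17 and 25 in the young lists. Over all genes it was 6777, 6342 and 6450 in aged and 5273, 4894 and 5442 in young lists, which also did not overlap. The ratio of means was 1.37 for the 33 genes and 1.25 over all genes. A peak in all 6 lists was found in 15 of the 33 genes, a count not made over all genes. At equal list length 20 to 23 of the 33 genes had a peak in aged and 17 to 24 in young lists, so that the ages overlapped. Over all genes the numbers were then 4252 to 4279 in aged and 4601 to 4894 in young lists. Peaks assigned to the 33 genes covered 53619, 48565 and 76914 bases in the aged lists and 25719, 16551 and 36971 bases in the young lists, counted over whole peaks, including bases past the end of a span. That is 0.678%, 0.678% and 0.971% of the bases covered in each aged list and 0.464%, 0.389% and 0.642% in each young list. Aged list 3 and young list 3 had the widest cover within their age, and aged list 1 exceeded young list 3 by little in this share.

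**Figure D1:**
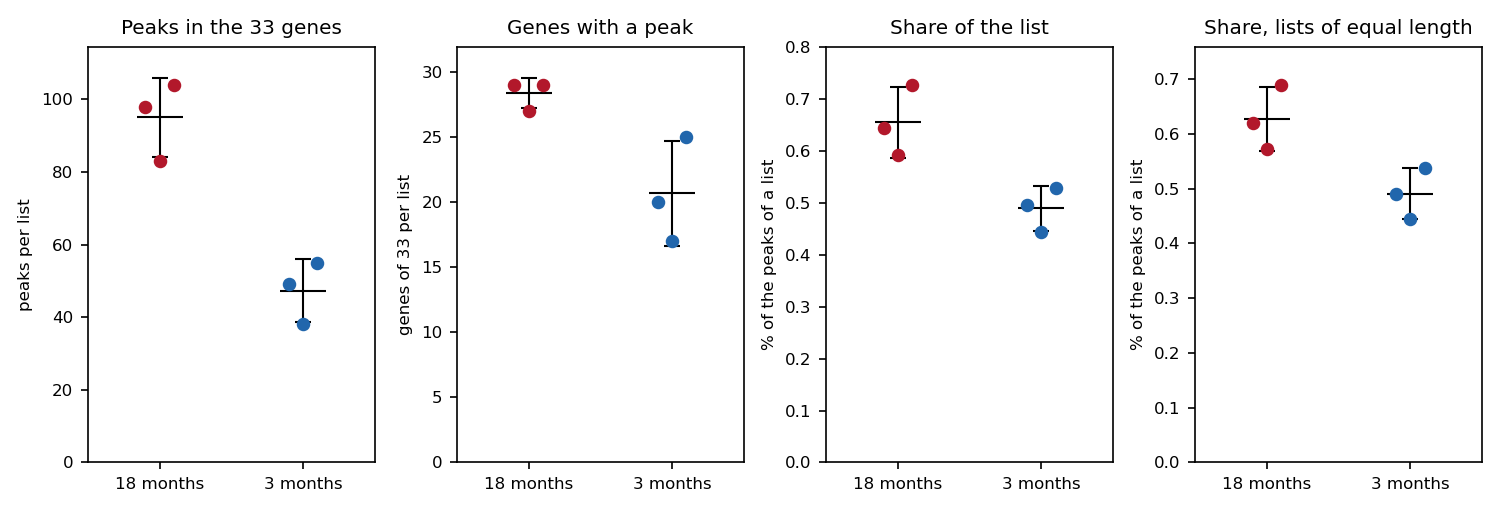
Peaks in the 33 synaptic genes, genes with a peak, and the share of the peaks of a list that lay in these genes, per peak list, as deposited and with lists of equal length (last panel). Points are the 3 lists of an age, horizontal bars the mean and whiskers the SD; the aged lists (83 to 104 peaks) lie above the young lists (38 to 55) in every panel.

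Taken singly, genes with more peaks in every aged list than in every young list numbered 12 of the 33 genes, or 38.7% of the 31 with a peak. No gene of the 33 showed the opposite order. By covered bases, 15 were higher in every aged list and 0 lower, against 14.2% and 2.25% of all genes with a peak. By number of peaks, among all 9530 genes with a peak, 11.8% were higher in every aged list and 0.955% were lower. Genes with more peaks have more room for such an order, and the 33 genes had a median of 11 peaks over the 6 lists against 4 for all genes with a peak. Of genes with at least 5 peaks over the 6 lists, a limit added after the data were examined, 17.4% were higher and 0.444% lower in every aged list. Of the 24 such genes among the 33, 11 were higher and 0 lower. That limit sums the lists of both ages, so a gene can pass it through its aged peaks. It is therefore not independent of the order counted. With 3 lists against 3, a two-sided exact permutation test cannot give a p below 0.1, which was the value for each of these 12 genes, so none could pass 0.05. The median difference, aged minus young, was 1.67 peaks per list over the 31 genes and 0.333 over all genes with a peak. At equal list length 3 of the 12 genes kept the order (Dlg2, Magi2 and Shisa7), and all genes then gave 3.37% with more and 3.43% with fewer peaks in every aged list.

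**Figure D2:**
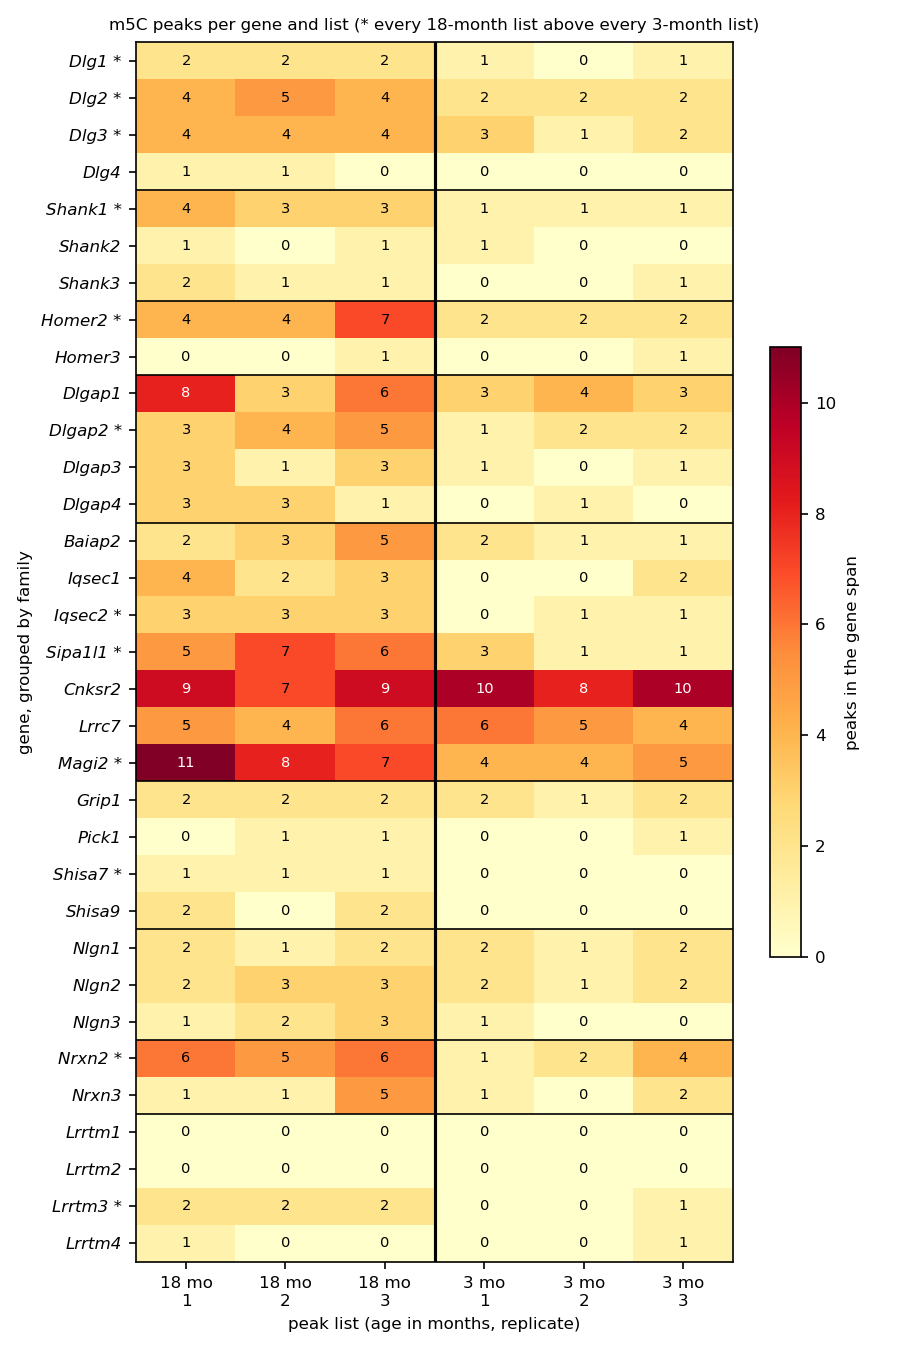
Number of m5C peaks in each of the 33 gene spans (rows, grouped by family) in the 3 aged and 3 young peak lists (columns); the colour repeats the printed number. Asterisks mark the 12 genes in which every aged list had more peaks than every young list; Cnksr2 and Lrrc7 hold many peaks at both ages.

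Among the Dlg genes, which encode the membrane-associated guanylate kinases, peaks were more numerous in every aged list for 3 of the 4. Dlg2, which encodes PSD-93, had 4, 5 and 4 peaks in the aged lists and 2, 2 and 2 in the young lists. Dlg3, which encodes SAP102, had 4, 4 and 4 in aged and 3, 1 and 2 in young lists. Dlg1, which encodes SAP97, had 2, 2 and 2 in aged and 1, 0 and 1 in young lists. In each of these genes the ages were separate, by 2 peaks between the nearest lists in Dlg2 and by 1 in the others. The Dlg2 order held at equal list length (3, 3 and 3 in aged, 1, 2 and 2 in young lists), whereas Dlg3 then had 0, 1 and 2 in aged and 3, 1 and 1 in young lists. Dlg4, which encodes PSD-95, the most abundant scaffold of the postsynaptic density, had 1, 1 and 0 peaks in aged lists and none in young lists. Its 2 peaks scored 63.3 and 56.6 by the authors' own score, close to the lowest score of 50 in any list, and none was left at equal list length.

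The Dlgap genes encode linkers between the guanylate kinases and Shank, and they held 17, 11 and 15 peaks in the aged and 5, 7 and 6 in the young lists. Dlgap2 had 3, 4 and 5 peaks in aged and 1, 2 and 2 in young lists, without overlap. Dlgap1 had the most of the family, with 8, 3 and 6 in aged and 3, 4 and 3 in young lists, and the ages overlapped (exact permutation p = 0.4, two-sided). Dlgap3 had 3, 1 and 3 in aged and 1, 0 and 1 in young lists, which touched at 1. Dlgap4 had 3, 3 and 1 in aged and 0, 1 and 0 in young lists, which also touched.

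Of the Shank genes, master scaffolds that join the SAPAP layer to Homer and the actin skeleton, Shank1 had 4, 3 and 3 peaks in aged and 1, 1 and 1 in young lists. Its single young peak was the same in every list, a 44-base stretch on chromosome 7 from 44310253 to 44310296 that the aged lists also held. The aged lists added a region of 1734 bases from 44356620 to 44358353, which ends 1741 bases before the end of the gene span. The score of that region was 1628, 1023 and 99.5 in aged lists 1, 2 and 3. With further regions held by 1 or 2 aged lists, peaks covered 2223, 1914 and 1914 bases of Shank1 in the aged lists and 44, 44 and 44 in the young lists. Shank2 had 1, 0 and 1 peaks in aged and 1, 0 and 0 in young lists, and Shank3 had 2, 1 and 1 and 0, 0 and 1, so that neither separated the ages. A single peak of young list 1 covered 3462 bases of Shank2, more than either aged list held there (21 and 2407 bases).

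Homer proteins bind Shank and metabotropic glutamate receptors. Homer2 had 4, 4 and 7 peaks in aged and 2, 2 and 2 in young lists. The 2 young peaks lay in regions present in all 6 lists, on chromosome 7 from 81612261 to 81612371 and from 81614183 to 81614499. Around them the aged lists had 2 further regions, from 81609596 to 81610441 and from 81618576 to 81618905, each held by every aged list and absent from the young lists. The scores of these added regions were between 53.3 and 205, and those of the shared regions in the same lists between 421 and 853. Homer3 had 0, 0 and 1 peaks in aged and 0, 0 and 1 in young lists.

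The remaining scaffolds and regulators held the most peaks, at 39, 34 and 39 in aged and 25, 20 and 24 in young lists, without overlap. Their ratio of the aged to the young mean, 1.62, was the lowest of the families. Magi2, a scaffold known as S-SCAM that binds neuroligins and receptors, had 11, 8 and 7 in aged and 4, 4 and 5 in young lists. Sipa1l1, a Rap-inactivating protein of dendritic spines known as SPAR, had 5, 7 and 6 in aged and 3, 1 and 1 in young lists. Iqsec2, an exchange factor for Arf GTPases, had 3, 3 and 3 in aged and 0, 1 and 1 in young lists. In all 3 genes the ages were separate. Iqsec1, a paralog of Iqsec2, had 4, 2 and 3 in aged and 0, 0 and 2 in young lists, and young list 3 reached the lowest aged value. Baiap2, which encodes the membrane-bending adaptor IRSp53, had 2, 3 and 5 in aged and 2, 1 and 1 in young lists.

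Cnksr2 and Lrrc7 did not show this order. Cnksr2, which encodes a scaffold that links Ras signalling to the postsynaptic density, had the most peaks of all 33 genes, with 9, 7 and 9 in aged and 10, 8 and 10 in young lists. Its aged mean of 8.33 ± 1.15 lay below its young mean of 9.33 ± 1.15 (SD, n = 3 each, exact permutation p = 0.5, two-sided), and it was the one gene of the 33 with a lower aged mean. Without young list 2, every aged list of Cnksr2 lay below both remaining young lists. Lrrc7, which encodes densin-180, a leucine-rich protein of the postsynaptic density, had 5, 4 and 6 in aged and 6, 5 and 4 in young lists, with equal means. These 2 genes held 10 of the 22 regions that the 33 genes shared between all 6 lists. Cnksr2 had 7 of them, spread over its span on chromosome X, and the one from 157853095 to 157853635 scored 3100 in each aged list and 3100, 2620 and 3100 in the young lists. Lrrc7 had 3, among them a 98-base region on chromosome 3 from 158452692 to 158452789 with scores of 3100, 3100 and 3100 in aged and 3100, 2240 and 3145 in young lists. Many peaks share the score 3100, so these scores were not ranked. Scores are the authors' own values, given here to describe peaks within a list, and are not compared between ages.

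Proteins that bind AMPA-type glutamate receptors or sit beside them held few peaks, 5, 4 and 6 in aged and 2, 1 and 3 in young lists for 4 genes. Shisa7, which encodes a membrane protein that accompanies GABA and AMPA receptors, had 1 peak in each aged list and none in the young lists. No other gene of the 33 was marked in each aged list and unmarked in each young list, an order that 4.24% of all genes with a peak showed; 0.808% showed the reverse. The 3 peaks had the same ends, on chromosome 7 from 4836044 to 4836878, in the middle of the span, and scored 676, 358 and 421. Shisa9, which encodes the AMPA receptor partner CKAMP44, had 2, 0 and 2 in aged lists and none in young lists. The PDZ proteins Grip1 and Pick1 bind AMPA receptor tails. Grip1 had 2, 2 and 2 in aged and 2, 1 and 2 in young lists, and Pick1 had 0, 1 and 1 and 0, 0 and 1.

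Among the 9 adhesion genes, 2 separated the ages. Nrxn2, which encodes a neurexin and so acts mainly in the axon terminal, had 6, 5 and 6 peaks in aged and 1, 2 and 4 in young lists. A 1950-base region at the very end of its span, on chromosome 19 from 6531268 to 6533217, was present in all 6 lists. A region from 6490534 to 6490915 was present in the 3 aged lists and in no young list. Lrrtm3, which encodes a leucine-rich neurexin ligand, had 2, 2 and 2 peaks in aged and 0, 0 and 1 in young lists, all at its 5' end. One of its regions, on chromosome 10 from 64089710 to 64090274, was held by the aged lists alone. Nrxn3 had 1, 1 and 5 in aged and 1, 0 and 2 in young lists, and most of its aged excess was in list 3.

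The neuroligins did not separate the ages. Nlgn1 had 2, 1 and 2 peaks in aged and 2, 1 and 2 in young lists. Nlgn2, the neuroligin of inhibitory synapses, had 2, 3 and 3 in aged and 2, 1 and 2 in young lists, and at 88.7 peaks per 100 kb of span over the 6 lists it was the most densely marked of the 33 genes. Its last 2958 bases, on chromosome 11 from 69823122 to 69826079, formed a single region in all 6 lists. Nlgn3 had 1, 2 and 3 in aged and 1, 0 and 0 in young lists. Lrrtm4 had 1 peak in aged list 1 and 1 in young list 3. No list had a peak in Lrrtm1 or Lrrtm2, whose spans are 30.7 and 6.02 kb.

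The peaks of the 6 lists formed 158 regions in the 33 genes, a region being the union of peaks that touched or overlapped. Of these, 22 (13.9%) had a peak in all 6 lists, against 17.6% of all 24501 regions of the series. Regions held by each aged list and by no young list numbered 12 (7.59%), in 10 genes, against 5.13% of all regions. The reverse was found in none, against 0.637% of all regions. Regions with a peak in at least 1 aged and no young list made up 81 of the 158 (51.3%, against 38.9% of all regions), and 69 of those 81 came from 1 or 2 aged lists. Regions with a young peak and no aged peak numbered 11 (6.96%, against 13.5%), each from 1 young list. Of the peaks in the 33 genes, 55.1%, 55.4% and 56.7% in the aged lists lay in a region that a young list also held, against 64.6% to 68.2% of all peaks of those lists. Of the young peaks in the 33 genes, 89.8%, 94.7% and 92.7% lay in a region that an aged list held, against 84.5% to 86.9% of all peaks of the young lists. At equal list length 2 aged regions kept the 3-to-0 pattern, in Sipa1l1 and Shisa7, and 1 region of Magi2 had the reverse pattern. Over all regions 335 then had the 3-to-0 pattern and 306 the reverse, against 1258 and 156 as deposited.

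Besides those named above, regions with the 3-to-0 pattern lay in 5 of the 33 genes. In Magi2 they were on chromosome 5 from 20602347 to 20602521 and from 20651055 to 20651447. In Sipa1l1 the region was 1838 bases long, on chromosome 12 from 82340662 to 82342499. The Iqsec2 region covered 912 bases from the annotated start on chromosome X, from 152144268 to 152145179. In Iqsec1 it was on chromosome 6 from 90689580 to 90690826, and in Dlgap3 it was the last 873 bases of the gene span, on chromosome 4 from 127236150 to 127237022. The 12 regions had a median width of 840 bases, and the 22 regions of all 6 lists 208 bases. Union regions of several peaks can be wider than the peaks in them. In the 22 shared regions, which had 1 peak per list each, the peak had identical ends in all 6 lists in 18.

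Peaks lay towards the 3' end of the gene spans. By their midpoints, and with those past the end counted in, the last 20% of the span held 44.9%, 49.4% and 51.0% of the peaks of the 33 genes in the aged lists and 40.8%, 39.5% and 40.0% in the young lists. The ages did not overlap in the lists as deposited, and over all genes the shares were 35.6% to 37.5% in aged and 35.4% to 38.1% in young lists. At equal list length the shares of the 33 genes did overlap, at 43.4%, 51.0% and 47.5% in aged and 40.5%, 39.5% and 45.7% in young lists. With peaks from the median score of each list upward they also overlapped, with 45.7% in the lowest aged and 46.2% in the highest young list. The first 20% of the span held 13.3% to 14.4% of the peaks of the 33 genes in aged and 10.2% to 14.5% in young lists, which overlapped. The first 1000 bases held 4.81% to 6.12% in aged and 2.63% to 4.08% in young lists, and over all genes at least 9.78% in aged and at least 9.05% in young lists. At equal list length these shares of the 33 genes overlapped, at 5.66%, 6.12% and 3.39% in aged and 4.76%, 2.63% and 4.35% in young lists. The last 1000 bases, as deposited, held 3.06% to 6.73% in aged and 2.04% to 5.45% in young lists, which overlapped. Over all genes they held at least 9.05% in aged and at least 9.78% in young lists. The 33 genes are long, with a median span of 151 kb against 30.8 kb for all genes with a peak, so that a fixed distance is a smaller part of them. Per megabase of span they held fewer peaks, 34.5 over the 6 lists against 101 for all genes with a peak. Spans include introns, and exons were not annotated in the tables used here.

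**Figure D3:**
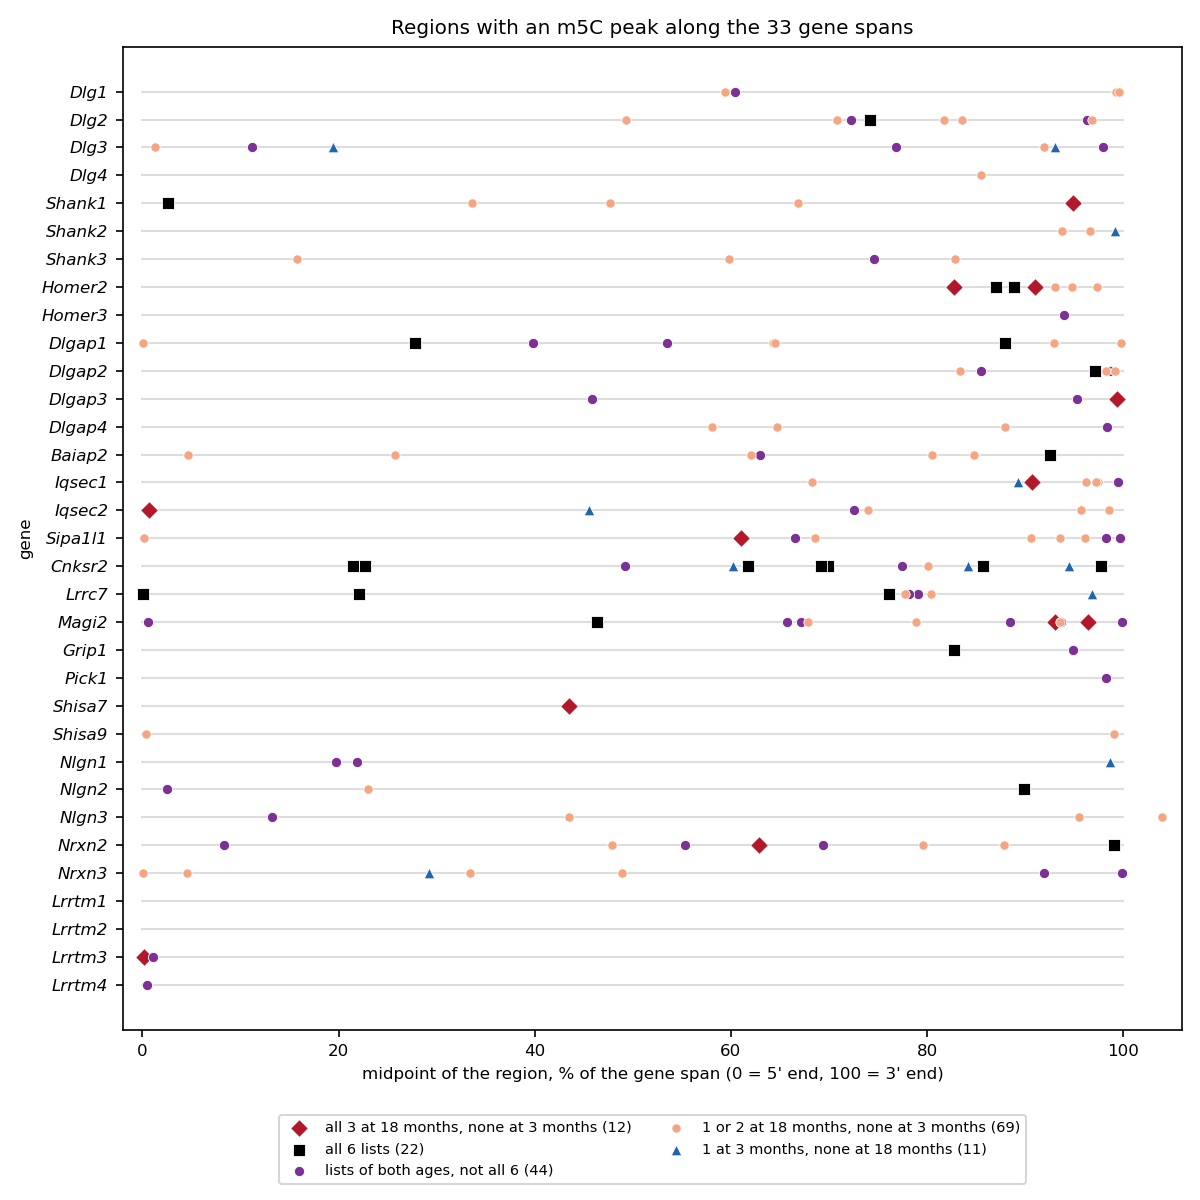
Midpoint of each of the 158 regions along the gene span, from 0% at the 5' end to 100% at the 3' end of the span, one row per gene, with symbols for the lists that held a peak. Of the regions, 77 have their midpoint in the last 20% of the span or past its end (1 region of Nlgn3 lies past it); the 12 diamonds were held by each aged list and no young list, and the 22 squares by all 6 lists.

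Other genes of the synapse were counted in 4 lists that do not include the 33. Of 24 further postsynaptic density genes with a peak, 10 (41.7%) had more peaks in every aged list and 0 fewer. Kalrn, Cyfip2, Homer1, Dmd and Nptxr are given as examples that were chosen after their values were seen. Kalrn, which encodes the spine regulator kalirin, had 25, 20 and 26 peaks in aged and 12, 10 and 14 in young lists. Cyfip2, a part of the actin-regulating WAVE complex, had 10, 6 and 7 in aged and 2, 0 and 1 in young lists. Homer1, the remaining Homer gene, had 3, 4 and 4 in aged and 4, 3 and 3 in young lists, which overlapped.

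Among 32 further adhesion genes with a peak, 8 (25.0%) had more peaks in every aged list and 0 fewer. Slitrk5, Cadm3 and Igsf9b, which encode postsynaptic or homophilic adhesion proteins, had 1 or 2 peaks in each aged list and none in any young list, as did the guanylate kinase gene Mpp2 and Insyn1 of the inhibitory synapse. They were 5 of the 77 genes with a peak in the other synaptic lists, and 4.24% of all genes with a peak showed this order. Scaffold genes of the inhibitory synapse counted 3 of 7 with a peak (42.9%), among them Dmd, which encodes dystrophin, with 12, 10 and 10 peaks in aged and 3, 5 and 5 in young lists. Auxiliary genes of AMPA receptors counted 1 of 14 (7.14%), Nptxr, with 3, 3 and 3 in aged and 0, 0 and 2 in young lists. Among the cell type markers, 6 of 36 with a peak (16.7%) had more peaks in every aged list, with 33.3% of interneuron, 28.6% of astrocyte, 1 of 5 endothelial, 12.5% of pyramidal and granule neuron and 0 of the oligodendrocyte and microglia markers. Gad1, Aldh1l1 and Pecam1 had peaks in each aged list and in no young list, and were the only 3 of the 36 markers that did. None of these lists had a gene with fewer peaks in every aged list, and whether their counts differ from one another was not tested.

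**Figure D4:**
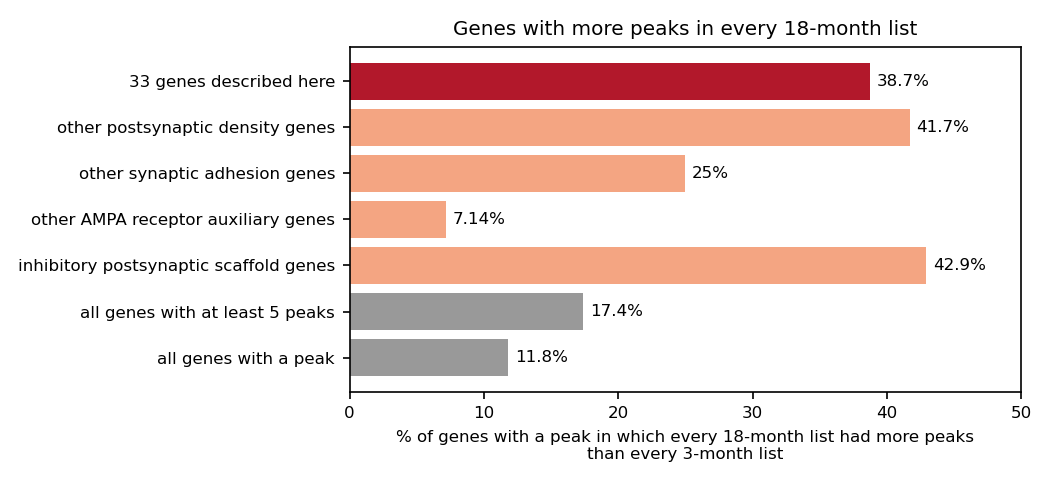
Share of genes with a peak in which every aged list had more peaks than every young list, in percent, for the 33 genes (38.7%), 4 lists of other synaptic genes and all genes (grey bars: 17.4% of genes with at least 5 peaks, 11.8% of genes with any peak). The AMPA receptor auxiliary list (7.14%, 1 of 14 genes) lies below both grey bars and the other synaptic lists above both. Cell type markers are not drawn. Interneuron (33.3%, 2 of 6 genes), astrocyte (28.6%, 2 of 7) and endothelial markers (1 of 5) are above both bars. Pyramidal and granule neuron markers (12.5%, 1 of 8) are between the bars, and oligodendrocyte (0 of 7) and microglia markers (0 of 3) are below both.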

How the data were processed

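Per the submitters' processing notes, reads were processed with cutadapt 1.9.3 and HISAT2 2.0.4 and the genome build is mm10. The authors deposited 1 peak list per immunoprecipitate, with a start, an end, a strand and a score for each peak. Peak names in the deposited lists carry the word MACS, and its version and settings were not given in the sources used here. Deposited score values began at 50 and many peaks shared 3100, so they served only to rank or filter within a list.

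Spans came from a RefSeq table of GRCm38.p6 (mm10). Strand was read from RefSeq start windows (26 of the 33 genes), otherwise from the majority of peaks in no other span (6 genes); Lrrtm2 had no strand and no peak on either one. Of unambiguous peaks, 99.655% lay on the strand given by the windows. No peak in the 33 genes fell in another gene span on its strand. Peaks, covered bases and union regions were counted with Python 3.11.15, pandas 2.3.3 and numpy 2.4.6; the counting was tested on simulated lists. Coordinates count from 1. Depth is unknown, so no interval is given. All 33 genes are named; the rule gave values per list for genes that separated the ages, for the 5 with the most peaks and for those with a region or a peak at 1 age, and of other lists for genes with a peak at 1 age. Values of further genes were added after they were seen. The genes, lists and tests were chosen with earlier results of these data known. Alternatives were lists of equal length, peaks from the median score upward, 50% of the peak inside the span, either strand, regions joined at 50 bases of overlap, each list left out, and the list number as a block. Some genes of the other lists are not reported here by name.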

Additional observations from a re-analysis of the deposited data

How the results depend on the processing

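Assigning peaks with 50% of their length inside the span, on either strand, or joining regions at 50 bases left the counts of the 33 genes with more or fewer peaks, and of their aged-only, young-only and shared regions, as they were. With lists of equal length the aged minus young difference was 11.7 peaks (47.7 as deposited), 1.33 genes with a peak (7.67 as deposited) and 16718 bases (33286 as deposited). In that setting 3 genes had more peaks in every aged list, and there were 2 aged-only and 1 young-only regions (335 and 306 over all regions). With peaks from the median score of each list upward, the difference was 19.7 peaks and 0.0874 percentage points of the list (0.165 as deposited). In that case 7 genes had more peaks in every aged list (6 of the 12, and Nlgn1, against 11.7% of all genes). There were 4 aged-only regions (648 over all regions), and 11.3% of peaks lay in the first 20% of the span (13.3% as deposited). Fewer peaks enter both settings, and equal list length takes away a larger part of the aged lists than of the young lists. Leaving out 1 list in turn gave 13 to 16 genes with more peaks in every aged list, each time including the 12, against 14.0% to 18.1% of all genes. It gave 15 to 20 aged-only regions, with 20 without aged list 1 and 20 without aged list 3, since the rule then asks for fewer lists. Over all regions 1500 to 2148 were then aged-only. Genes with fewer peaks numbered 0 to 1, the 1 being Cnksr2 without young list 2.

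The list numbers are not said to pair samples. Taken as pairs (a replicate block), 15 of the 33 genes had more peaks in the aged list of every pair, against 16.0% of all genes with a peak. Over 9530 genes, deviations from the mean of the age correlated at 0.0227, 0.108 and 0.0391 within numbers. Each list had its highest correlation with the list of its own number, apart from young list 1, which had 0.0374 with aged list 3.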

Other observations

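Peaks on the strand opposite to the gene were rare in the 33 spans, with 1 in Lrrc7 in aged list 1, 1 in Nlgn1 in aged list 2 and none in the other 4 lists. For 6 of the genes the strand was itself taken from the majority of peaks, so a low number there is partly given by that choice. In the aged lists 3 of 98, 3 of 83 and 5 of 104 peaks of the 33 genes ended exactly at the end of the gene span. In the young lists 2 of 49, 1 of 38 and 1 of 55 did. Over all genes such peaks made up 3.86% to 4.81% in aged and 4.29% to 4.86% in young lists. Of the 11 regions with a young peak and no aged peak, 3 lay in Cnksr2 and 2 in Dlg3, of which one began exactly at an annotated start inside the Dlg3 span, at 100777271 on chromosome X.

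Within a list, the score of peaks in the 33 genes lay at or above the median of the list for 46.9%, 48.2% and 49.0% of peaks in aged lists and for 57.1%, 63.2% and 47.3% in young lists.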
